A study of Mus musculus with 17 samples.

Results

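The genes described here were 10 of the 21848 in the count tables: the surface markers Cd83, Cd86 and Cd69, the zinc-finger factors Egr1, Egr2 and Egr3, the nuclear receptor Nr4a1, and the AP-1 subunits Fos, Jun and Junb. They were chosen by symbol, as genes that mark activated B cells of the germinal centre (GC) light zone (LZ) or that respond first to a signal, and no threshold on a measured value entered the choice. All 10 were listed in every table and passed the filter on low counts in each comparison of all cells as given below.

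The data were 5′ single-cell RNA libraries of GC B cells sorted from mouse lymph nodes, in which the cells of each mouse carried hashtag antibodies. In the time course, CD45.1/1 hosts primed with ovalbumin (OVA) received B1-8hi B cells, which carry a knocked-in receptor for the hapten NP, and were immunized with NP-OVA in the footpad. A minority of the transferred cells expressed the endocytic receptor DEC-205, and the others were Ly75-/- and lacked it. The methods describe the donors as carrying a tetO-H2B-mCherry division reporter driven by Vav-tTA. Anti-DEC-OVA, an antibody that carries OVA into DEC-205-expressing cells and so makes them present much antigen to T cells, was given at day 7. Mice were analysed at 0 h (day 7, untreated, n = 9), at 48 h (day 9, untreated, n = 6, or treated, n = 9) and at 72 h (day 10, untreated, n = 8, or treated, n = 7), in 2 experiments of 25 and 14 mice. In a separate experiment, GC B cells with a CDK2 activity reporter (Rosa26 DHB-tdTomato, in part with H2B-GFP) were taken 72 h after anti-DEC-OVA and sorted by image into cells with a cytoplasmic reporter (CDK2-high) and with a nuclear reporter (CDK2-low), each from the same 7 mice. The mice were young adults of both sexes, and hosts, priming, immunization and, for the CDK2 sort, the treatment were shared by the groups compared. Untreated mice were the controls. The study describes the cells of this time course as DEC-205-positive. All kept cells of a mouse entered its sum, and DEC-205 was not checked in single cells. The study kept only cells in which the B1-8hi heavy and light chains were found together, which was not required here. This pairing was found in 67.7% of kept cells of the larger experiment and 43.4% of the smaller. It was found in 63.0% of CDK2-high and 62.2% of CDK2-low cells.

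In a GC, B cells divide and mutate in the dark zone (DZ) and return to the LZ, where they take up antigen through the B cell receptor and receive help from T follicular helper cells through CD40 and cytokines. Immediate-early genes are transcribed within minutes of such signals without new protein synthesis, because the factors that drive them (SRF with ternary complex factors, CREB, NF-kB) are already in the cell, and most of their transcripts are short-lived. CD83 and CD86 mark LZ cells in flow cytometry, and transcripts of the EGR family, Nr4a1 and AP-1 serve as readouts of recent receptor or CD40 signalling in B cells.

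The genes lie on different chromosomes (GRCm39 with GENCODE M39): Cd83 at chr13:43938251-43956634 with 5 exons, Cd86 at chr16:36424044-36486443 with 8, Cd69 at chr6:129244288-129252399 with 5, Egr2 at chr10:67371305-67378018 with 2, Egr3 at chr14:70314350-70320063 with 2, Nr4a1 at chr15:101151980-101172681 with 7, Fos at chr12:85520658-85524047 with 4, Jun at chr4:94937271-94940459 with 1 and Junb at chr8:85701113-85705359 with 1. Egr1 has 2 exons.

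Promoter windows are shown for 4 of the immediate-early genes because their values moved apart at 48 h relative to all UMIs, where Egr2, Nr4a1 and Junb were lower and Fos did not pass; per cell Egr2 and Nr4a1 did not pass and Junb and Fos were higher. Each is the 160 bases before the start of transcription, from RefSeq on GRCm38.p6, and capitals mark the motif matches. The strand and interval are chr10:67537709-67537868 (plus) for 1 of the 2 Egr2 starts, of 5 in the table, with the most matches, chr15:101266686-101266845 (plus) for Nr4a1, chr12:85473730-85473889 (plus) for Fos and chr8:84978749-84978908 (minus) for Junb.
Egr2: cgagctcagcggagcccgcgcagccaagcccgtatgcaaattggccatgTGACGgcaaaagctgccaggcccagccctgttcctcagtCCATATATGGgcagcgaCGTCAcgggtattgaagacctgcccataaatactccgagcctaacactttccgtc
Nr4a1: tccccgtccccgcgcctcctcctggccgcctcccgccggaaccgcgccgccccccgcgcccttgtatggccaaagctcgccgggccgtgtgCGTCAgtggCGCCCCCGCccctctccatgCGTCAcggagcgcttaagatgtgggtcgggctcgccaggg
Fos: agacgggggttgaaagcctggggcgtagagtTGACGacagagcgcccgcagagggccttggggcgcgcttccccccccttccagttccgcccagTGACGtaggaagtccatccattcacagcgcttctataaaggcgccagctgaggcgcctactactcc
Junb: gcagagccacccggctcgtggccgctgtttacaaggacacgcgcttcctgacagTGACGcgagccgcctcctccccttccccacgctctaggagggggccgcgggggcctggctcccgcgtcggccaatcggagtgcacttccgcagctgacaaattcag

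The motif found most often was TGACG, which reads CGTCA where it lies on the other strand, the core of the cAMP response element (CRE) bound by CREB and ATF factors, which was added to the search after the sequences were seen. It stood at -111 to -107 and -55 to -51 before the Egr2 start, at -69 to -65 and -40 to -36 before Nr4a1, at -129 to -125 and -66 to -62 before Fos and at -106 to -102 before Junb. At least 1 copy was in 20.8% of 32851 promoters of 300 bases. The Egr2 window also held a CArG box, the site of serum response factor, at -72 to -63, a motif in 1.63% of promoters, and the Nr4a1 window held an EGR site (GCGTGGGCG or GCGGGGGCG) at -60 to -52, found in 3.47%. Further matches lay outside the printed stretch or ran past its end, in Nr4a1 an NF-kB site from -3 to 6, of which the first 3 bases are printed in lower case, and TGACG at -233 to -229 and -213 to -209, and in Fos an NF-kB site at -214 to -205. Jun, which like Egr2 and Nr4a1 was lower relative to all UMIs and did not pass per cell, is not shown. The window of Jun held no exact match to the motifs searched, so that the printed windows are ones with matches. It does hold TGACATCA, which differs from the full CRE by 1 letter and was not searched. Full CRE (TGACGTCA), AP-1 (TGACTCA, the other strand of which is TGAGTCA) and NF-kB motifs, searched on both strands, were in 1.79%, 5.2% and 4.51% of promoters. These are matches of letters and not measured binding.

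Depth was 1984426 to 13373185 UMIs per mouse from 292 to 1045 cells in the time course, and 3988733 to 20394909 from 278 to 1679 cells in the CDK2 pools. UMIs of all cells of a mouse were summed and given as CPM, the gene's UMIs after scaling every mouse to the same total, so that the mouse is the replicate; fewer cells of a type and less RNA per cell cannot be told apart in such sums. UMIs per cell were not alike between groups: the median over mice of a mouse's median cell was 6667 in untreated and 13704 in treated mice at 48 h, 6563 and 7208 at 72 h, and 10514 in CDK2-high and 12956 in CDK2-low cells. The members' differences between groups are therefore given on the scale of all UMIs (edgeR, TMM) and, as an alternative chosen after the data were seen, per cell, whereas the phase split of the sort and the named genes of other lists are given relative to all UMIs only. TMM adjusts each mouse's total by a factor, so that a fitted difference relative to all UMIs can depart from that of the CPM values. All 9 GC B cell markers were detected in every mouse, and 5 of the 6 T cell markers in the tables had medians under 1 CPM. Lck, the exception, had a median of 75.9 CPM and made up most of the T cell sums below. The smaller experiment lost 23.6% of its assigned cells to the filter on genes and mitochondrial reads, against 2.51% in the larger, and the fits carry a term for the experiment. Cell barcodes shared between libraries numbered 94 for the 2 experiments and 6 for the 2 CDK2 pools, each counted in its own library.

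At 48 h after anti-DEC-OVA, 9 of the 10 genes were lower than in untreated mice of the same day relative to all UMIs, whereas per cell, where 93.6% of all genes were called, 2 were lower and 3 higher. Both counts of lower genes include Egr3, whose low counts limit its test. The exception, Fos, the partner subunit of Jun in AP-1, did not pass the test. Cd83 fell to 0.458 of the untreated level. Among all 10220 genes tested, 21.1% were called lower and 47.4% in either direction. The members' median log2 difference was -0.82. The median over all genes was 0.01, which the TMM scaling keeps near 0. With cells thinned to one depth 6 of 8 tested genes were lower. The members' median was then -0.52, over these 8 and not all 10 genes. Per cell the median over all 10 was -0.05. In the larger experiment alone 9 of 10 genes passed, and in the smaller 5.

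Cd83, an immunoglobulin-superfamily protein that holds MHC class II and CD86 at the cell surface, gave the clearest separation. Its lowest, median and highest levels were 289, 310 and 350 CPM in untreated mice at 48 h and 106, 139 and 167 CPM in treated mice. Every treated mouse was below every untreated one in both experiments, and the log2 difference was -1.13 ± 0.07 (SE, adjusted p = 7.1e-16). Per cell it was -0.36 ± 0.09 (adjusted p = 0.00051), from 2.65 UMIs per cell at the median untreated mouse to 2.14 at the treated. Cd83 was thus lower on both scales, by a smaller amount per cell.

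Cd86, the ligand of CD28 and CTLA-4 on T cells, ran from 152 through 165 to 190.4 CPM in untreated mice and from 74.2 through 91.6 to 104 CPM in treated mice. These groups did not overlap either, with a log2 difference of -0.82 ± 0.09 (adjusted p = 3e-09). Per cell the difference was -0.05 ± 0.08 (adjusted p = 0.54), with 1.44 UMIs per cell in the median untreated and 1.499 in the median treated mouse. For Cd86 the lower share of the transcriptome was not matched by a detectable change in transcripts per cell. Cd69, a C-type lectin that keeps activated lymphocytes in tissue by binding S1PR1, was at 62.2, 80.0 and 123 CPM in untreated and at 47.5, 57.0 and 62.4 CPM in treated mice. The groups overlapped narrowly over both experiments together and not within either. Its log2 difference was -0.50 ± 0.11 (adjusted p = 0.0002) relative to all UMIs and 0.28 ± 0.12 (adjusted p = 0.025) per cell, so that the sign depended on the scale.

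The EGR factors, which ERK signalling induces through SRF and which in turn switch on their own repressor Nab2, were lower together. Egr1 was at 21.2, 30.6 and 38.1 CPM in untreated and at 8.40, 14.5 and 27.01 CPM in treated mice at 48 h, a log2 difference of -0.85 ± 0.16 (adjusted p = 2.8e-05). Egr2, which with Egr3 restrains lymphocyte activation, was at 1.25, 2.69 and 3.67 CPM in untreated and 0.463, 1.49 and 2.33 CPM in treated mice, with a log2 difference of -0.88 ± 0.29 (adjusted p = 0.011). Both genes had overlapping groups. Egr3 was at 0.330, 1.74 and 2.57 CPM in untreated mice and between 0 and 0.823 CPM, median 0.231, in treated mice, resting on 55 and 30 UMIs in all. The 9 treated mice held 30 Egr3 UMIs in all, and the gene passed the filter on low counts through the other groups of the fit, with only the compared groups leaving it untested. Its fitted log2 difference of -2.24 ± 0.37 (adjusted p = 3.9e-06) is therefore given as a value with no weight on its size. The same holds for its value per cell (-1.49 ± 0.38), where Egr1 (-0.08 ± 0.17) and Egr2 (-0.11 ± 0.31) did not pass.

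Nr4a1, the orphan nuclear receptor Nur77 used as a reporter of antigen receptor signals, was at 2.57, 3.92 and 5.01 CPM in untreated and 1.51, 1.81 and 2.89 CPM in treated mice. The groups overlapped by little over both experiments and not within either, and the log2 difference was -0.82 ± 0.20 (adjusted p = 0.00076). Per cell it was -0.05 ± 0.18. As for Cd86, a difference in Nr4a1 transcripts per cell was not detectable.

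The AP-1 subunits did not move as one. Junb, which also forms AP-1 dimers that restrain Jun, was at 61.3, 95.6 and 109 CPM in untreated and 39.6, 64.1 and 70.7 CPM in treated mice. Treated mice lay below untreated mice within the larger experiment (59.6 to 70.7 against 91.9 to 109 CPM) and within the smaller (39.6 to 49.8 against 61.3 to 65.2 CPM), with a log2 difference of -0.49 ± 0.06 (adjusted p = 3.3e-08). Jun was at 16.5, 27.9 and 62.4 CPM in untreated and 11.7, 19.8 and 21.8 CPM in treated mice, with overlap and a log2 difference of -0.66 ± 0.22 (adjusted p = 0.012). Fos was at 28.0, 48.5 and 99.4 CPM in untreated and 31.8, 54.9 and 85.7 CPM in treated mice. The Fos groups covered the same range, and the log2 difference was 0.07 ± 0.23 (adjusted p = 0.84), with a 95% interval from -0.38 to 0.52. Per cell, Fos was higher in treated mice by 0.84 ± 0.24 (adjusted p = 0.0012), Junb by 0.28 ± 0.09 (adjusted p = 0.0048), and Jun by 0.13 ± 0.21, which did not pass.

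**Figure D1:**
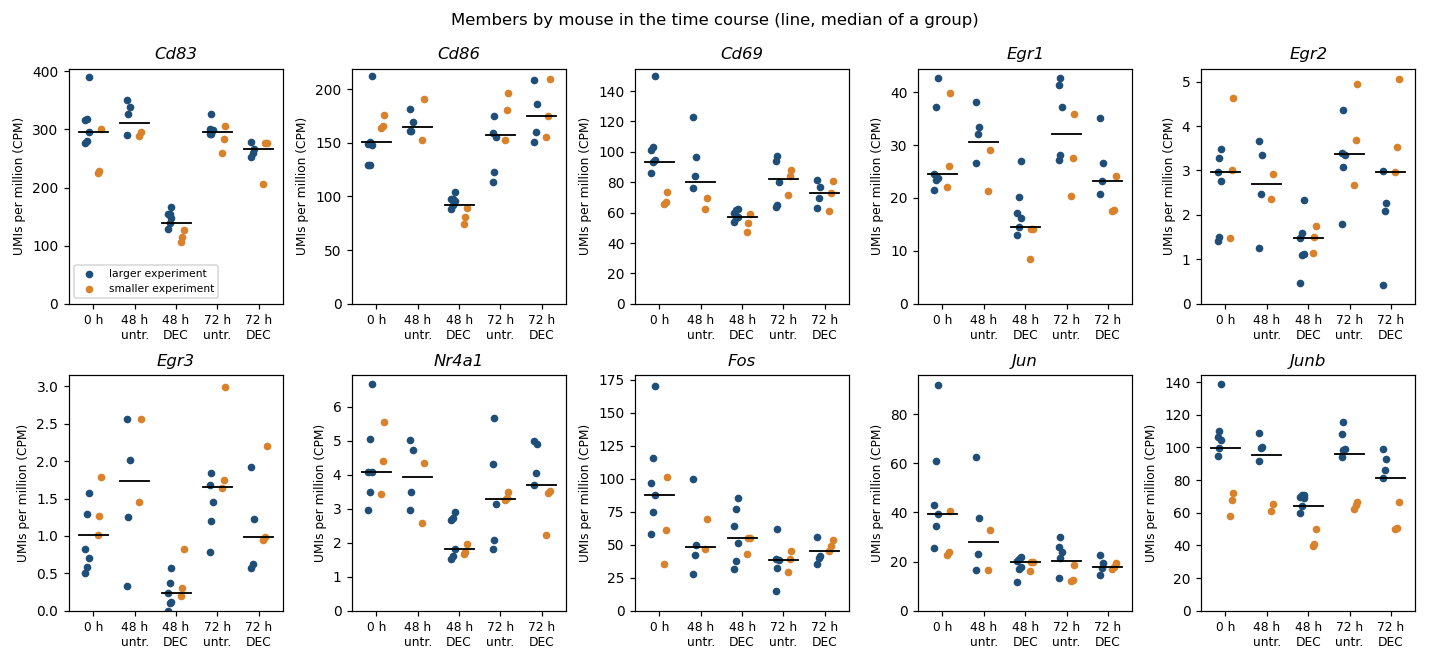
Level of each of the 10 genes in every mouse, in CPM on a linear axis from 0, by group, with the larger and the smaller experiment in different colours and a bar at each group's median. Cd83 and Cd86 of the 9 treated mice at 48 h lie below all 6 untreated mice of that time, while the Fos groups cover one another.

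In all, treated and untreated mice at 48 h did not overlap for 2 of the 10 genes over both experiments (Cd83 and Cd86), which 4.8% of all genes did in the lower direction, and for 5 within either experiment (also Cd69, Nr4a1 and Junb), which 13.7% did. Per cell, the median log2 difference of all genes was 0.78 and 9566 were called, 99.5% of them higher in treated mice, so that the per-cell values of the members stand beside a general rise. Treated mice at 48 h also held fewer cells that scored as LZ (median 38.2% against 67.6%) and as G0-G1 (20.1% against 53.0%). Summed heat-shock and dissociation genes, which tissue dissociation can induce, as it can some immediate-early genes, were at 6378 to 7426 CPM in treated and 4899 to 6105 CPM in untreated mice of the larger experiment, and at 8150 to 9401 and 6202 to 7440 CPM in the smaller. Naive or memory B cell markers, mostly Fcer2a, were at 94.9 to 192 CPM in treated and 234 to 403 CPM in untreated mice of both experiments. Summed GC B cell markers were at 4228 to 4496 and 4885 to 5417 CPM in the larger experiment and at 3498 to 3821 and 4399 to 4554 CPM in the smaller. T cell markers, mostly Lck, were at 54.8 to 65.6 and 67.6 to 106 CPM and at 47.3 to 54.3 and 77.4 to 78.9 CPM. Within either experiment, treated and untreated mice did not overlap for any of these 4 sums. The part of these in the differences was not tested, and the split by zone and phase that follows makes the cells compared more alike only in part.

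Cd83 and Cd86 were lower relative to all UMIs in each class of scored cells at 48 h, and per cell in none. Cells were scored as LZ or DZ from gene lists that hold none of the 10 members. The lists, of 18 and 12 genes, were chosen here and are not the signatures the study used. The LZ list holds NF-kB pathway genes such as Nfkbia, Relb and Nfkb2, and the DZ list mitotic genes such as Ccnb1 and Plk1. A score is not a position in the GC. The study describes B cells 72 h after treatment as still mostly in the DZ, while here a median of 62.4% scored as LZ. The split did not make the zones equal between groups, since within LZ-scored cells 8 of 17 LZ score genes were still lower in treated mice (median -0.36) and 4 of 12 DZ score genes higher (median 0.36), and within G0-G1 cells 4 of 10 DZ score genes were higher (median 0.66). Among LZ-scored cells, 7 of the 10 genes were lower at 48 h, beside 14.8% of 9695 genes lower and 29.5% called in either direction; per cell 2 were higher and 0 lower, where 86.7% of genes were called. Cd83 differed by -0.62 ± 0.06 (adjusted p = 2e-09) and Cd86 by -0.62 ± 0.09 (adjusted p = 1.5e-06), and Egr3, limited by its low counts, had a fitted value of -1.26 ± 0.37. Nr4a1 differed by -0.88 (adjusted p = 0.0096), Egr1 by -0.61 (adjusted p = 0.012), Cd69 by -0.35 (adjusted p = 0.016) and Junb by -0.23 (adjusted p = 0.015). Egr2 (-0.38), Jun (-0.44) and Fos (-0.03) did not pass.

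Among DZ-scored cells, 4 of the 7 genes with enough counts were lower, against 11.3% of 9433 genes lower and 24.5% called; per cell 4 were higher, where 89.1% of genes were called. Cd83 differed by -0.63 ± 0.09 (adjusted p = 2.4e-06), Cd86 by -0.35 (adjusted p = 0.0036), Cd69 by -0.31 (adjusted p = 0.024) and Jun by -0.68 (adjusted p = 0.019), whereas Egr1 (-0.27), Junb (-0.07) and Fos (0.14) did not pass. Among cells scored as G0-G1, 3 of 8 genes were lower, where 4.09% of 8802 genes were lower and 8.08% called. These were Cd83 (-0.48 ± 0.09, adjusted p = 0.0002), Cd86 (-0.45 ± 0.08, adjusted p = 0.00015) and Egr1 (-0.99 ± 0.28, adjusted p = 0.016), and per cell 0 of the 8 passed, where 67.6% of genes were called. A cell near the border of the zone scores can fall on either side, and 7.16% to 12.2% of the cells of a library lay within 0.05 of it.

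**Figure D2:**
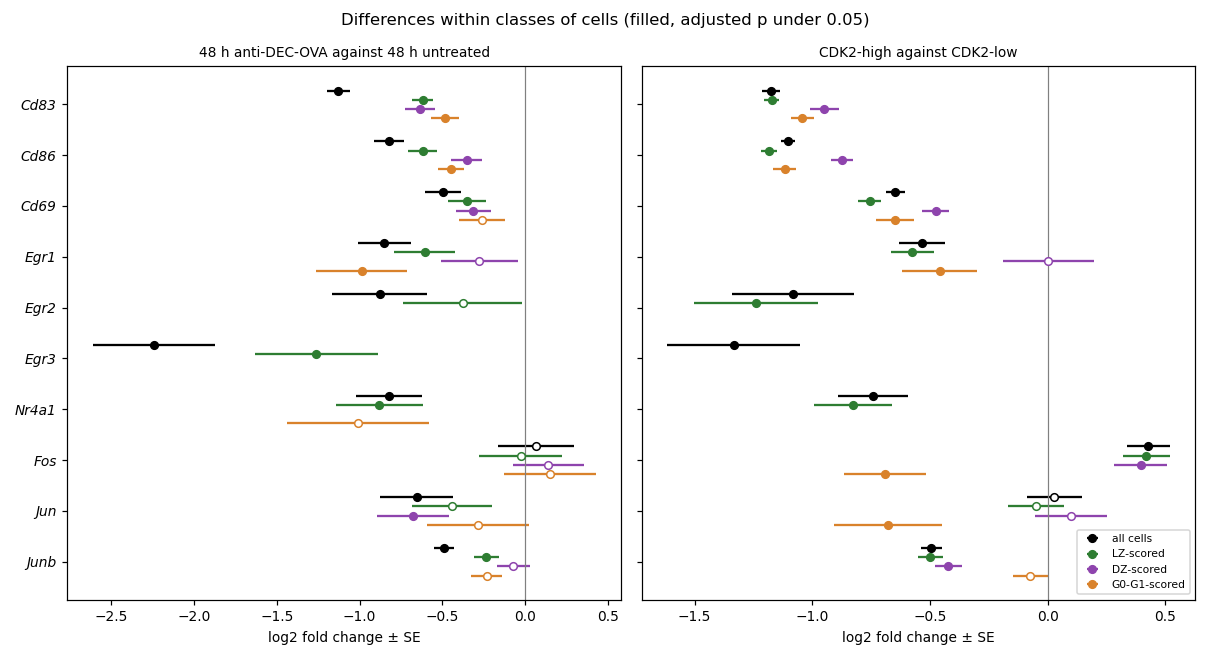
Log2 fold change with its SE for each gene in all cells and within LZ-scored, DZ-scored and G0-G1 cells, for 48 h treated against untreated mice and for CDK2-high against CDK2-low cells, relative to all UMIs (filled, adjusted p under 0.05). Cd83 and Cd86 lie left of 0 in every class of both comparisons, while Fos lies near or right of 0 except in G0-G1 cells of the sort (-0.69); per cell, not plotted, 2 genes are lower at 48 h in all cells and 0 within any of the 3 classes.

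At 72 h most differences did not pass the test. Relative to all UMIs, 1 of the 10 genes was called lower than in untreated mice of day 10, Junb, where 3.88% of genes were lower and 8.55% called, and none of the 10 had groups that did not overlap, as 0.205% of genes had in the lower direction. Junb was at 62.2, 96.2 and 116 CPM in untreated and 50.1, 81.3 and 99.3 CPM in treated mice, a log2 difference of -0.22 ± 0.06 (adjusted p = 0.025) that per cell was -0.11 (adjusted p = 0.53). Junb did not pass in the larger experiment (adjusted p = 0.13) or the smaller (adjusted p = 0.59) alone, nor without the term for the experiment (adjusted p = 0.81). The mice overlapped widely, and the call for Junb at 72 h rests on the joint fit. Per cell 1 gene passed, Cd86, where 6.02% of all genes were called.

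Cd83 was at 259, 296 and 327 CPM in untreated and 206, 267 and 279 CPM in treated mice at 72 h, with a log2 difference of -0.19 ± 0.07 (adjusted p = 0.08). Cd86 was at 113, 157 and 197 CPM in untreated and 151, 175 and 209.7 CPM in treated mice, a difference of 0.16 ± 0.09 (adjusted p = 0.32), and per cell of 0.26 (adjusted p = 0.042). The Cd86 ranges overlapped, and so did those of Cd83. Egr1 was at 20.3, 32.04 and 42.7 CPM against 17.6, 23.2 and 35.1 CPM (-0.43 ± 0.17, adjusted p = 0.11), and Egr3 differed by -0.52 ± 0.35 (adjusted p = 0.42). Cd69 (-0.18), Egr2 (-0.34), Nr4a1 (0.14), Fos (0.29) and Jun (-0.09) did not pass either, although 3 of the 10 had an unadjusted p under 0.05.

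The change of the treatment difference from 48 h to 72 h was tested as an interaction. It was positive for 5 of the 10 genes relative to all UMIs, against 13% of all genes and 31.5% called in either direction; per cell, where 84.6% of genes were called, 1 was positive and 1 negative, and for Junb the sign turned (-0.40). The interaction was 0.93 ± 0.10 (adjusted p = 5.3e-08) for Cd83, 0.98 ± 0.13 (adjusted p = 1.3e-06) for Cd86, 0.96 ± 0.29 (adjusted p = 0.0092) for Nr4a1 and 0.27 ± 0.09 (adjusted p = 0.017) for Junb. Egr3 is the fifth, but its value rests on the few UMIs of treated mice at 48 h and no weight is put on it. For Egr1 (0.42), Egr2 (0.53), Cd69 (0.32), Jun (0.57) and Fos (0.22) a change between the times was not shown. With cells thinned to one depth 2 of 8 tested genes passed. The members' median was 0.33 over these 8, and 0.55 over all 10 without thinning, so that the 2 medians are not over the same genes. In the larger experiment alone 6 of 10 passed, and in the smaller 2.

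Between treated mice, 7 of the 10 genes were higher at 72 h than at 48 h relative to all UMIs, beside 22.3% of genes higher and 49.1% called; per cell, where 92.5% of genes were called, 2 were higher and 4 lower. With cells thinned to one depth 3 of 8 tested genes passed, with a members' median of 0.27, without the term for the experiment 5 of 10 did, and in the smaller experiment alone 3 did. The rise was 0.84 ± 0.07 (adjusted p = 8.2e-12) for Cd83, 0.86 ± 0.09 (adjusted p = 6.3e-10) for Cd86 and 0.29 ± 0.06 (adjusted p = 0.00013) for Junb. Egr1 rose by 0.55 ± 0.17 (adjusted p = 0.0059), Egr2 by 0.88 ± 0.29 (adjusted p = 0.01) and Nr4a1 by 0.81 ± 0.20 (adjusted p = 0.00083). Egr3, with 30 UMIs at 48 h, is counted among the 7 but was not tested with only the compared groups, and no weight is put on its fitted value. Cd69 (0.25 ± 0.11, adjusted p = 0.056), Fos (-0.37 ± 0.23, adjusted p = 0.2) and Jun (-0.12 ± 0.24, adjusted p = 0.71) did not pass. Per cell, where the median of all genes moved by -0.69, the 2 higher genes were Egr3, with the same limit, and Cd86 (0.16, adjusted p = 0.046), and Cd83 did not pass (0.15, adjusted p = 0.11). Cd69 (-0.43, adjusted p = 0.00075), Fos (-1.05, adjusted p = 8.1e-05), Jun (-0.80, adjusted p = 0.0011) and Junb (-0.39, adjusted p = 0.00017) were lower per cell. From 48 h to 72 h after treatment the median share of LZ-scored cells went from 38.2% to 62.4%, and that of G0-G1 cells from 20.1% to 49.2%. Summed heat-shock and dissociation genes were between 6378 and 7426 CPM at 48 h and between 4585 and 5087 CPM at 72 h in the larger experiment, and between 8150 and 9401 CPM and between 5147 and 6986 CPM in the smaller. At the same times naive or memory B cell markers were at 132 to 192 and 242 to 318 CPM in the larger and at 94.9 to 112 and 189 to 257 CPM in the smaller. GC B cell and T cell marker sums, the latter mostly Lck, were also higher at 72 h with no overlap within either experiment. Their part in the rise was not tested.

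**Figure D3:**
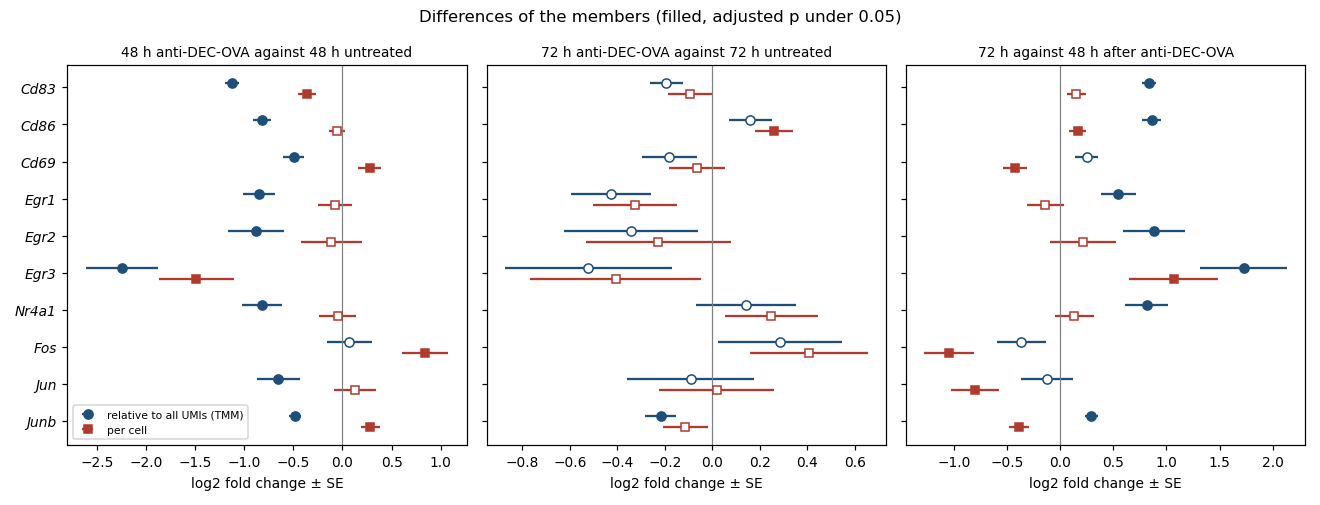
Log2 fold change with its SE for each gene relative to all UMIs (circles) and per cell (squares), at 48 h and at 72 h against untreated mice and for 72 h against 48 h after anti-DEC-OVA (filled, adjusted p under 0.05). Cd83 and Egr3 at 48 h are filled on the left on both scales, while Cd69 and Junb change sides. Egr3 rests on 30 UMIs in treated mice at 48 h, and no weight is put on its value.

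Without treatment, from 0 h to 48 h, 0 of the 10 genes passed in edgeR, 0 in DESeq2 and 1, Fos (-0.64 ± 0.23), had an unadjusted p under 0.05, where 0.127% of all genes were called. From 0 h to 72 h, Fos and Jun, 2 of the 10 genes, were lower, beside 2.62% of genes lower and 4.41% called. Fos was at 35.2, 87.6 and 170.3 CPM at 0 h and 15.2, 38.5 and 62.2 CPM in untreated mice at 72 h, a log2 difference of -1.23 ± 0.23 (adjusted p = 0.00068). Jun was at 22.7, 39.4 and 91.7 CPM and then at 12.2, 20.1 and 30.2 CPM, a difference of -1.07 ± 0.22 (adjusted p = 0.0019). The groups overlapped for both genes, and the spread at 0 h was wide. Per cell the differences were -1.26 and -1.11, both called, where 1.39% of genes were. Without the 0 h mouse with the most Cd69, they were -1.11 (adjusted p = 0.0013) and -0.94 (adjusted p = 0.004). In the larger experiment alone both passed (Fos -1.36, adjusted p = 0.01, and Jun -1.02, adjusted p = 0.036), and in the smaller neither did (Fos -0.87, adjusted p = 0.21, and Jun -1.03, adjusted p = 0.13).

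Fosb, a further AP-1 subunit, was lower by -1.69 ± 0.27 (adjusted p = 6.9e-05) from 0 h to 72 h in the same mice. Dusp1, a phosphatase of MAP kinases, differed by -0.59 (adjusted p = 0.036), Dusp5, an ERK phosphatase, by -0.51 (adjusted p = 0.00048) and Nab2, the EGR repressor, by 0.66 (adjusted p = 0.0016). Of 21 further immediate-early genes tested, 7 were lower and 0 higher in this comparison; per cell 4 were lower and 0 higher.

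Against 0 h, all 10 genes were lower in mice treated 48 h before, relative to all UMIs, where 24.7% of genes were lower and 51.8% called; per cell, where 94% of genes were called, 2 were lower (Cd83 -0.23 and Egr3 -0.92) and 1 higher (Junb 0.19). Egr3 is in both counts of lower genes, but it held 30 UMIs in treated mice at 48 h and no weight is put on its values. With only the groups compared, 9 genes were tested and 9 were lower. Relative to all UMIs the log2 differences were -1.01 for Cd83, -0.70 for Cd86, -0.60 for Cd69, -0.76 for Egr1, -0.92 for Egr2, -1.66 for Egr3, -0.97 for Nr4a1, -0.58 for Fos, -1.04 for Jun and -0.58 for Junb. This comparison shares the treated mice with that against untreated mice of day 9 and is no independent evidence.

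The CDK2 sort gave a comparison within mice, all of them treated 72 h before. CDK2-high cells had lower levels of 8 of the 10 genes and a higher level of Fos relative to all UMIs. Per cell, where 89.2% of genes were called, 9 were lower and 0 higher. Egr3, whose low counts limit its test, is in both counts of lower genes. Of all 10120 genes tested, 38.6% were called lower, 36.5% higher and 75.1% in either direction. The members' median log2 difference was -0.69, and that over all genes -0.02, which the TMM scaling keeps near 0. CDK2-high cells also held fewer UMIs (median 10514 against 12956 per cell), and per cell the members' median was -1.19. Per-cell values of the sort differ from the fitted values above by this gap in UMIs and by the TMM factors, and their parts were not tested. With upper-quartile scaling in place of TMM the members' median was -0.83, with 8 lower and 1 higher. Each population was 1 library, so that population and library cannot be told apart.

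Cd83 was at 131, 162 and 196 CPM in CDK2-high and 374, 416 and 491 CPM in CDK2-low cells, lower in 7 of 7 mice by -1.18 ± 0.04 (adjusted p = 8.7e-20). Cd86 was at 90.2, 101 and 122 CPM and at 211, 259 and 303 CPM, lower in 7 of 7 mice by -1.10 ± 0.03 (adjusted p = 5.4e-21). Cd69 was at 43.4, 48.8 and 59.3 CPM and at 79.4, 87.6 and 108 CPM, lower in 7 of 7 mice by -0.65 ± 0.04 (adjusted p = 1.4e-13). For these surface markers the populations did not overlap. Per cell, Cd83 went from 5.64 UMIs in CDK2-low to 1.70 in CDK2-high cells and Cd86 from 3.37 to 1.11, as medians over mice.

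Egr1 was at 6.95, 14.5 and 22.1 CPM in CDK2-high and 18.8, 24.04 and 29.1 CPM in CDK2-low cells, lower in 7 of 7 mice (-0.53 ± 0.10, adjusted p = 3e-05). Egr2 was at 0.510, 1.08 and 1.61 CPM and 1.21, 3.04 and 5.01 CPM, lower in 6 of 7 mice (-1.08 ± 0.26, adjusted p = 0.0006). Egr3 was at 0.292, 0.386 and 1.29 CPM and 0.967, 1.497 and 3.03 CPM, lower in 7 of 7 mice. It rested on 46 UMIs in CDK2-high and 92 in CDK2-low cells over all mice. Its fitted value of -1.33 ± 0.28 (adjusted p = 0.00016) is given with no weight on its size. Egr1 and Egr2 were lower within mice although the populations overlapped, and so was Egr3 with this limit. Nr4a1 was at 1.58, 2.40 and 3.57 CPM and 3.29, 5.02 and 6.31 CPM, lower in 7 of 7 mice (-0.74 ± 0.15, adjusted p = 8.3e-05).

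Junb was at 48.7, 64.6 and 73.8 CPM in CDK2-high and 82.1, 101 and 120.1 CPM in CDK2-low cells, lower in 7 of 7 mice (-0.49 ± 0.04, adjusted p = 2.2e-10), with no overlap. Fos was at 15.1, 19.3 and 26.7 CPM and 8.49, 16.7 and 27.5 CPM, higher in CDK2-high cells in 5 of 7 mice (0.43 ± 0.09, adjusted p = 0.00018). Per cell that difference was -0.06 (adjusted p = 0.52), and without the pairing by mouse it was 0.42 (adjusted p = 0.08), so that the call for Fos needs both the scale of all UMIs and the pairing. Jun was at 7.82, 9.27 and 14.1 CPM and 7.28, 11.1 and 23.8 CPM, with a difference of 0.03 ± 0.12 (adjusted p = 0.84) and a 95% interval from -0.20 to 0.26, and lower per cell (-0.46, adjusted p = 0.00012). Fos and Jun were the 2 genes not lower in CDK2-high cells in the TMM fit. By CPM, which lacks the TMM factors, Jun was lower in 3 of 7 mice and higher in 4. Mean levels in CDK2-high and CDK2-low cells were 10.3 and 11.9 CPM for Jun and 20.1 and 17.4 CPM for Fos.

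**Figure D4:**
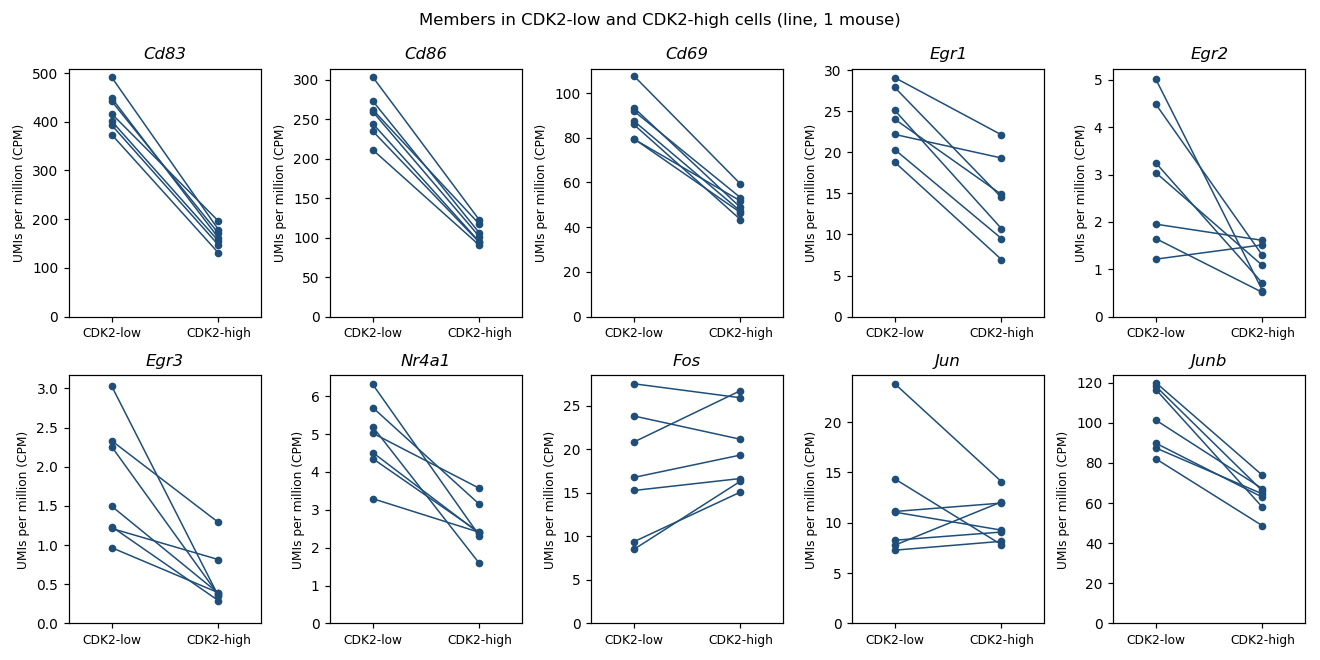
Level of each gene in CDK2-low and CDK2-high cells of the 7 mice, in CPM, with a line for each mouse. The lines of Cd83, Cd86, Cd69, Junb, Egr1, Egr3 and Nr4a1 fall in every mouse, 6 of 7 fall for Egr2, and those of Fos and Jun cross.

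In all, 7 of the 10 genes, with Egr3 and its few UMIs among them, were lower in every mouse, which 47.7% of all genes were. Populations did not overlap for 4 genes, as for 32.9% of all genes in that direction. CDK2-high cells held 12.2% to 19.1% of cells scored as G0-G1 and CDK2-low cells 52.7% to 63.0%. Summed heat-shock and dissociation genes were at 5240 to 5813 CPM in CDK2-high and 3752 to 4250 CPM in CDK2-low cells, and naive or memory B cell markers at 97.0 to 175 and 323 to 492 CPM, led by Fcer2a, which LZ cells also express. GC B cell markers summed to 3552 to 3887 and 4646 to 5202 CPM and myeloid markers to 4.58 to 7.89 and 8.61 to 35.9 CPM, also with no overlap. T cell markers, mostly Lck, summed to 44.1 to 66.8 and 61.2 to 142 CPM. Their part in the differences was not tested.

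Among DZ-scored cells of the sort, 4 of 7 genes were lower and Fos higher (0.40, adjusted p = 0.0023), where 34.3% of genes were lower, 32.6% higher and 67% called: Cd83 by -0.95, Cd86 by -0.88, Cd69 by -0.48 and Junb by -0.42. Egr1 (0.00, adjusted p = 0.99) and Jun (0.10) did not pass there, although per cell Egr1 and Jun differed by -0.49 and -0.38. The call for Egr1 turned on how the zone was scored, since with the DZ score without cell-cycle genes 5 of 7 genes were lower, Egr1 (-0.45 ± 0.19, adjusted p = 0.04) among them. Among LZ-scored cells, 7 of 9 genes were lower and Fos higher (0.42, adjusted p = 0.00038), where 37% of genes were lower, 34.2% higher and 71.2% called. Cd83 differed there by -1.17, Cd86 by -1.19, Cd69 by -0.76, Egr1 by -0.57, Egr2 by -1.24, Nr4a1 by -0.83 and Junb by -0.50, and Jun (-0.05) did not pass. In both zones the sign of Fos turned per cell, to -0.09 and -0.05. The split did not make the zone genes of the sorted cells alike: relative to all UMIs, among LZ-scored cells 16 of 17 LZ score genes were lower in CDK2-high cells (list median -0.60) and 11 of 12 DZ score genes higher (3.14). Among DZ-scored cells 10 of 17 LZ score genes were lower (-0.20) and 10 of 12 DZ score genes higher (1.962), and their part in the members' differences was not tested.

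Cells were also split by phase, an alternative added after the data were seen. Among cells scored as G0-G1, 6 of 7 genes were lower and 0 higher in CDK2-high cells, where 31% of genes were lower and 61.5% called. Fos (-0.69 ± 0.17, adjusted p = 0.00059) and Jun (-0.68 ± 0.23, adjusted p = 0.0095) were among them, with Cd83 (-1.04), Cd86 (-1.12), Cd69 (-0.65) and Egr1 (-0.46), while Junb (-0.07) did not pass. Among cells scored as S or G2M, 6 of 8 genes were lower, where 32.9% of genes were lower, 30.3% higher and 63.3% called, and Fos was higher (0.53 ± 0.11, adjusted p = 9.7e-05). Cd83 differed there by -0.95, Cd86 by -0.82, Cd69 by -0.51, Egr1 by -0.33, Junb by -0.43 and Nr4a1 by -0.77, with Jun at 0.04. The Fos difference had opposite signs in the phases, and the change of sign was not itself tested.

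The levels in LZ-scored and DZ-scored cells of the 23 untreated mice are a description. How many of all genes were higher in LZ-scored cells in every mouse was not counted, so the counts of mice below have no background beside them. Cd83 had a median of 458 CPM in LZ-scored and 116 CPM in DZ-scored cells, Cd86 of 221 and 88.1, Cd69 of 106 and 59.2 and Junb of 128 and 51.1 CPM. Each of these was higher in LZ-scored cells in 23 of 23 mice. Egr1 was at 45.1 and 14.5 CPM, higher in 22 mice, Egr2 at 4.30 and 1.15 CPM, higher in 21, Nr4a1 at 4.96 and 1.98 CPM, higher in 21, and Egr3 at 2.70 CPM against a median of 0 in DZ-scored cells, higher in 23. Fos was at 53.9 and 46.1 CPM, higher in 16 mice, and Jun at 26.1 and 24.9 CPM, higher in 15. With a DZ score that leaves out cell-cycle genes, Fos was higher in LZ-scored cells in 10 of 23 mice (52.2 and 48.2 CPM). With that score Nr4a1 was higher in 19 of 23 mice, and Cd69 in 22, at 98.6 and 69.3 CPM. In treated mice of the CDK2 sort, Cd83 was at 621 CPM in LZ-scored and 159.9 CPM in DZ-scored CDK2-low cells, and at 262 and 75.4 CPM in CDK2-high cells, so that the sort and the zone each went with a difference.

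**Figure D5:**
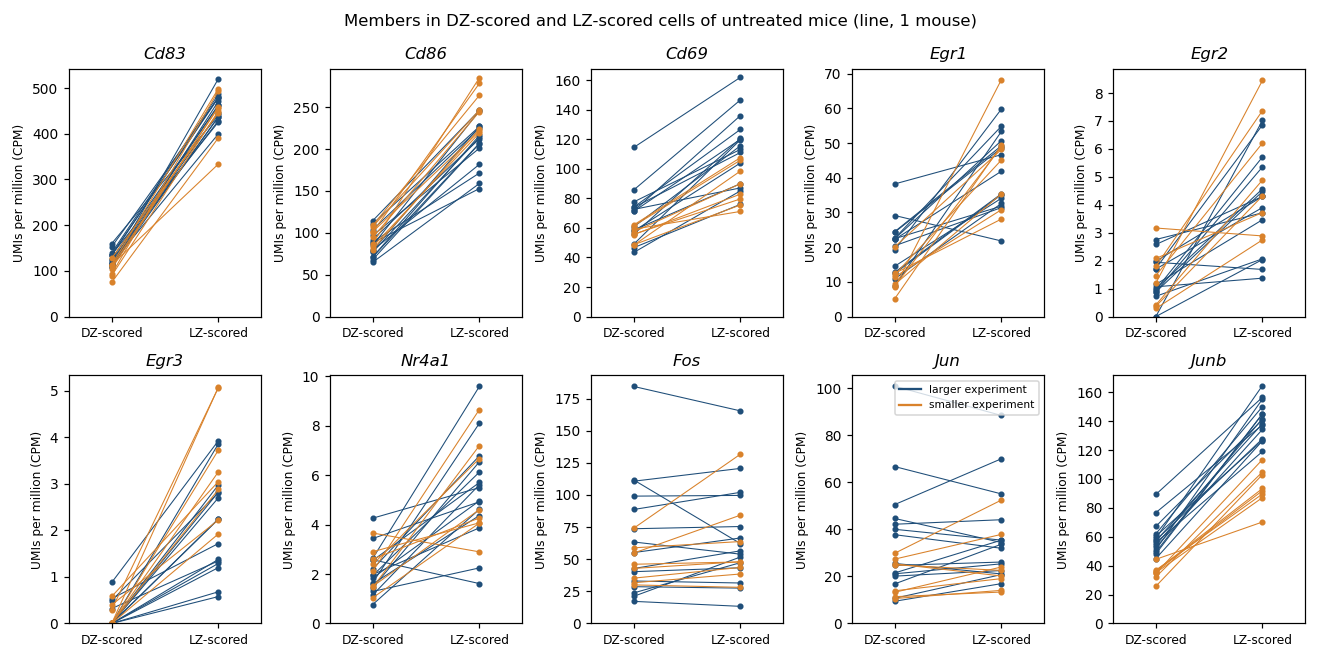
Level of each gene in LZ-scored and DZ-scored cells of each of the 23 untreated mice, in CPM, with a line for each mouse from DZ to LZ. Lines of Cd83, Cd86, Cd69, Egr3 and Junb rise in all mice, and those of Fos and Jun go both ways.

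Across the 39 mice of the time course, after the experiment's mean was taken out, the genes followed each other to different degrees (Pearson r of log2 CPM, a description over mice that share libraries and groups). Cd83 and Cd86 had r = 0.861, Cd83 and Junb 0.856, Fos and Jun 0.769 and Egr1 and Egr3 0.67, whereas Cd83 and Fos had r = -0.01 and Cd86 and Fos 0.01. Genes of different roles also went together, with r = 0.73 for Cd86 and Nr4a1, 0.723 for Cd83 and Egr3, 0.659 for Cd83 and Egr1 and 0.658 for Jun and Cd69. Egr3 held at most 23 UMIs in a mouse of the time course and Nr4a1 at most 36. Low counts limit their r values, and no weight is put on those of Egr3. Among 6222 genes of at least 20 CPM, Cd83 was most like Lrrk2 (0.954), Dock10 (0.946) and Fcer2a (0.941), and Cd86 like Lat2 (0.949), Plekhm3 (0.949) and Cd22 (0.946). Fos was most like Dusp1 (0.781), Jund (0.736) and Zfp36l2 (0.598), and Jun like Dusp1 (0.78), Jund (0.77) and Ppp1r15a (0.744). Junb was most like Mbnl2 (0.841), Pxk (0.837) and Foxp1 (0.832), Cd69 like Supt20 (0.782), Ero1b (0.775) and Slc23a2 (0.774), and Egr1 like D130040H23Rik (0.753), Dnaaf9 (0.742) and Parp3 (0.738). Fos and Jun shared 2 of their 3 most similar genes, Dusp1 and Jund.

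Genes around the members were counted in the same way, where at 48 h 21.1% of all genes were lower and 47.4% called, and per cell 93.6% were called, nearly all of them higher. Of 21 further immediate-early genes tested at 48 h, 11 were lower and 1 higher relative to all UMIs, with a median of -0.25, but per cell 1 was lower and 17 higher. Btg2, an antiproliferative gene, differed by -0.99 ± 0.09 (adjusted p = 1e-10), Irf4, the factor that NF-kB and receptor signals induce, by -0.97 ± 0.19 (adjusted p = 7.2e-05) and the kinase Plk3 by -0.74. Of 16 feedback regulators, 6 were lower and 1 higher, and per cell 0 were lower and 13 higher. Among them the phosphatase Ptpn22 differed by -1.02, Nab2 by -0.88, Rgs2, which dampens G-protein signals, by -0.78 and the ubiquitin ligase Cblb by -0.56. Of 15 further LZ and activation surface genes, 10 were lower and 1 higher, and per cell 2 were lower and 8 higher. The complement receptor Cr2 differed by -1.38, the IgE receptor Fcer2a by -1.16, Cd72 by -1.01 and the ICOS ligand Icosl by -0.88. Of 11 receptors and proximal signalling genes upstream, 10 were lower and 0 higher, and per cell 0 were lower and 9 higher. Il4ra differed by -0.68 and Cd40 by -0.62. Of 11 heat-shock and dissociation genes, 6 were higher and 0 lower relative to all UMIs, and per cell 10 were higher, led on the first scale by Hsp90aa1 (0.62) and Hspd1 (0.59).

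In the CDK2 sort, where 38.6% of all genes were lower and 75.1% called (89.2% per cell), 14 of the 21 immediate-early genes were lower in CDK2-high cells and 2 higher, and per cell 21 were lower. The share called among these and among the feedback regulators was thus near that of all genes. Plk3 differed by -0.93, Btg1 by -0.63, Zfp36, which degrades unstable transcripts, by -0.62 and Irf4 by -0.58. Of the feedback regulators 10 of 16 were lower and 2 higher (per cell 15 lower and 0 higher), among them Ptpn22 (-1.28), Rgs1 (-0.84) and the MAP kinase phosphatase Dusp4 (-0.69). Of the surface genes 11 of 15 were lower and 3 higher (per cell 13 lower and 1 higher), with Fcer2a (-1.37), Cd72 (-1.25), Icosl (-1.19) and Sema7a (-1.02) lower and Cd24a (0.70) higher. All 11 upstream genes were lower on both scales, led by Il4ra (-1.07) and Il21r (-0.76), the receptors for T-cell cytokines. At 72 h against untreated mice, where 8.55% of all genes were called, 2 immediate-early genes were higher and 1 lower (Btg2, -0.76), 1 feedback regulator was higher (Dusp5, 0.73) and 1 lower, 3 surface genes were higher and 1 lower (Cd72, -0.88), and 1 upstream gene was higher.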

How the data were processed

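The deposited files hold raw UMI counts for each gene, and for each hashtag, in every cell, which the authors made with Cell Ranger (8.0.1 in the file headers, 6.0.1 among the submitters' processing notes, which also name Seurat 5.1.0 and mm39). The authors' list of mice gave each hashtag's mouse and group, and paired the populations of the CDK2 sort by mouse.

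Hashtags were called with HTODemux (Seurat 5.3.0, quantile 0.99), and cells positive for several mice were dropped, while doublets within a mouse were kept. In the CDK2 pools 2 of 9 listed mice had no cells, and a hashtag that is not in the list held cells, which were given to no mouse. A cell needed 200 genes or more and a mitochondrial share below 10% (kept: 23698 of 34657 in the time course and 11833 of 14564 in the CDK2 pools). For each mouse the UMI counts of its cells were added up, and edgeR 4.0.16 in R 4.3.3 tested these sums (quasi-likelihood test after filterByExpr and TMM, Benjamini-Hochberg over all genes, threshold 0.05), with a term for the experiment or, in the sort, for the mouse. SE is the absolute log2 fold change over the square root of F. The p-values measure the spread between mice. LZ, DZ and phase scores came from AddModuleScore and CellCycleScoring, a class needing 20 cells per mouse. The test was tried on simulated counts. DESeq2 1.42.0 was an alternative. Figures were drawn with matplotlib 3.10.9 in Python 3.11.15.

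The text names all 10 members and, from each list and comparison, called genes with an absolute log2 fold change of at least 0.5, at most 6 by size, of which only some are printed. The members and lists were chosen with earlier results of these data known. Promoters of 5 of the 10 members were in the RefSeq table used, and coordinates and sequence of Egr1 are not reported here.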

Additional observations from a re-analysis of the deposited data

Results flagged for a closer look

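In 3 of 70 groups of 4 to 10 mice, 1 mouse lay far from the rest by Dixon's criterion, where chance gives about 1 in 20 groups. A 0 h mouse of the larger experiment had the highest Cd69 (149.7 CPM, group median 93.3), a mouse of the smaller experiment treated 72 h before had the lowest Cd83 (206 CPM, group median 267), and a mouse of the CDK2 sort had the highest Jun in CDK2-low cells (23.8 CPM, group median 11.1).

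The effect of anti-DEC-OVA differed between 72 h and 48 h, by the interaction test in edgeR, for Cd83 (0.93 on the log2 scale), Cd86 (0.98), Egr3 (1.72), Nr4a1 (0.96) and Junb (0.27). Egr3 had 30 UMIs in treated mice at 48 h, and no weight is put on its value. The values above are relative to all UMIs, where 13% of all genes were positive and 31.5% were called in either direction. Per cell, where 84.6% of all genes were called, 1 of the members was positive and 1 negative. For Junb the sign turned per cell, so that its direction depended on the scale.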

How the results depend on the processing

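Of the single-gene values under alternatives, 1214 kept their direction and side of the threshold, 66 no longer passed, 17 newly passed and 24 reversed. Scaling per cell, chosen after seeing the data, turned most of those that reversed. It puts a mouse's number of cells in place of its UMI total, which shifts all genes of a comparison by a similar amount. At 48 h the members' median moved from -0.82 to -0.05. What lies behind the difference in UMIs per cell was not tested. Per cell, 5 of 10 genes passed at 48 h with Jun at 0.13, Junb at 0.28 and Cd69 at 0.28. From 48 h to 72 h after treatment Egr1 was at -0.14, Junb at -0.39 and Cd69 at -0.43. Against 0 h, 3 passed at 48 h, with Cd86 at 0.081, Fos at 0.19, Junb at 0.19 and Cd69 at 0.17. For the interaction 2 passed, with Junb at -0.40. In LZ-scored cells 2 passed, with Fos at 0.58, Junb at 0.36 and Cd69 at 0.25, in DZ-scored cells Cd86 was at 0.23, Junb at 0.51 and Cd69 at 0.27, and in G0-G1 cells 0 passed. In the CDK2 sort Fos was at -0.057 and Jun at -0.46, in its DZ-scored cells Egr1 at -0.49, Fos at -0.086 and Jun at -0.38, and in its LZ-scored cells Fos at -0.048. With the DZ score without cell-cycle genes, Egr1 in DZ-scored cells of the sort was at -0.45. With the smaller experiment alone, with fewer mice, 5 genes passed at 48 h, 0 at 72 h, 3 between 48 h and 72 h, 0 from 0 h to 72 h and 2 for the interaction, and with the larger alone 0 passed at 72 h. With cells thinned to one depth, 6 of 8 passed at 48 h, 2 at 72 h, 3 between the times and 2 for the interaction. At 72 h, 0 passed with the highest hashtag, with only cells of the B1-8hi pairing or without a term for the experiment, and 2 with only the groups compared, and without that term 8 passed at 48 h, 5 between the times, 5 in LZ-scored, 2 in DZ-scored and 2 in G0-G1 cells. Leaving out 1 mouse of the sort left 8 to 9 genes, 5 in DZ-scored and 7 to 9 in LZ-scored cells. The pairing of the sort comes from the authors' list of mice, and without the replicate block 8 genes passed, 4 in DZ-scored and 7 in LZ-scored cells, Fos no longer passing (0.42, 0.38 and 0.43). In DESeq2 9, 1 and 8 genes passed at 48 h, at 72 h and between them, and 9 in the sort. Low counts limit Egr3, Egr2 and Nr4a1.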

Other observations

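Among further immediate-early genes, Fosb, the AP-1 subunit that was lower from 0 h to 72 h in untreated mice, was also lower at 72 h than at 48 h in treated mice (log2 difference -0.97, adjusted p = 0.003). The interaction of treatment and time was 0.61 for Btg1, an antiproliferative gene, and 0.55 for Zfp36, whose protein degrades unstable transcripts, relative to all UMIs. On that scale 7 of 21 other immediate-early genes were positive, where 13% of all genes were and 31.5% were called, while per cell, where 84.6% were called, 0 were positive and 12 negative (median -0.45). In the CDK2 sort 10 of 11 heat-shock and dissociation genes were higher and 1 lower in CDK2-high cells relative to all UMIs, where 36.5% of all genes were higher and 75.1% called, and per cell, where 89.2% were called, 4 were higher and 3 lower. Hsp90aa1, a chaperone, differed by 1.38 and Socs3, a feedback inhibitor of cytokine signalling, by -0.97.

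Myeloid markers summed to at most 46.7 CPM in every mouse of the time course but 1, a 0 h mouse with 341 CPM. Without that mouse the counts of members called against 0 h were the same as with it.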
